A study of Mus musculus with 4 samples.

Results

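The Janus kinases and the STAT transcription factors were followed at the RNA level in group 2 innate lymphoid cells (ILC2s), lung lymphocytes that lack antigen receptors and secrete type 2 cytokines. The 9 genes, Jak1, Jak2, Jak3, Stat2, Stat3, Stat4, Stat5a, Stat5b and Stat6, were found by their symbols among 22558 genes. The match of symbols used no measured value, but the genes were chosen with earlier results of these data known. All 9 were among the 11711 genes abundant enough to be tested. The libraries came from 2 samples of WT mice (C57BL/6) and 2 samples of mice labelled ICAM-1 KO on the same background, for which the study's methods name a germline allele, Icam1 tm1Jcgr. Mice of both groups were 6 weeks old and received 3 intranasal challenges with 0.5 µg rmIL-33, a cytokine that activates ILC2s. Lungs were taken on day 4, and each library was made from the ILC2s of a pool of 4 mice, sorted as CD45+ Lin- ST2+ CD127+ cells. No unchallenged library was analysed here, so the values describe activated cells in both groups. The mice of the 2 pools of a group were not individually measured, and p-values therefore describe the spread between pools.

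Janus kinases sit on the inner tails of cytokine receptors and are switched on when a cytokine brings 2 receptor chains together. They then phosphorylate the receptor and the STAT proteins that dock on it, and the STATs pair, enter the nucleus and bind DNA. Jak3 pairs with the common gamma chain of the receptors for IL-2, IL-4, IL-7, IL-9 and IL-21, Jak1 with their partner chains, and Jak2 with receptors such as those for IL-3, IL-5 and GM-CSF. In ILC2s, IL-2, IL-7 and TSLP act largely through STAT5 and IL-4 and IL-13 through STAT6, whereas IL-33 itself signals through ST2 and MyD88 without a Janus kinase. Phosphorylation was not measured, so the values below concern RNA abundance and not the activity of the proteins.

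The depth was 24796148 to 28782471 counts per library. Icam1 (chr9:21015985-21028817 in mm10, plus strand) had 2579 and 2630 counts in WT and 2812 and 3453 in the others, so its RNA was not lower in the latter, and these are called the KO-labelled libraries throughout. By flow cytometry of lung ILC2s after rmIL-33, the study reports that its ICAM-1-deficient mice lack ICAM-1, which is a measure of protein and not of these libraries. Whether the allele leaves a transcript or a label is wrong was not tested here. The log2 fold change of Icam1 was 0.33 (SE 0.108, adjusted p = 0.0745, edgeR quasi-likelihood test with Benjamini-Hochberg adjustment). Correlation of log2 values was 0.966 between the WT libraries, 0.969 between the KO-labelled libraries and 0.930 to 0.938 across groups. The ILC2 marker Il1rl1, which encodes the ST2 chain of the sort, had 18964 and 22989 counts in WT and 22310 and 23848 in the KO-labelled libraries. All 12 ILC2 markers listed were detected in every library. Marker genes of 8 other kinds of cells were also present, and 33 of the 59 tested were higher and 2 lower in the KO-labelled libraries by the same test, against 8.8% and 4.97% of all genes tested. In these bulk samples, fewer cells of a type and less RNA per cell cannot be told apart.

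Jak2 was the single gene of the 9 called as changed (adjusted p under 0.05, edgeR), and it was higher in the KO-labelled libraries. That is 1 of 9 genes, against 13.8% of all genes tested in either direction and 8.8% higher. None of the 9 was called with a change of 2-fold or more, against 5.47% of all genes tested, and none was called lower. At an unadjusted p under 0.05 the edgeR test gave 3 higher genes and 1 lower gene, which is 4 of 9 against 30.2% of all genes tested, and DESeq2 and limma each called 1 higher gene and no lower gene. The median log2 fold change of the 9 was 0.01, the same as that of all genes tested. Their median absolute log2 fold change was 0.12, whereas that of all genes tested was 0.25. The median SE was 0.0967 for the 9 and 0.173 for all genes tested, so these 2 medians rest on unlike precision. Each group held 2 libraries, and the smallest p that an exact permutation test of 2 against 2 can give is 0.333, so single values rest on the fit across all genes. Normalized counts below are the authors' upper quartile scaled values, which compare a gene between libraries but not one gene with another, and fold changes are those of the KO-labelled libraries over WT.

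**Figure D1:**
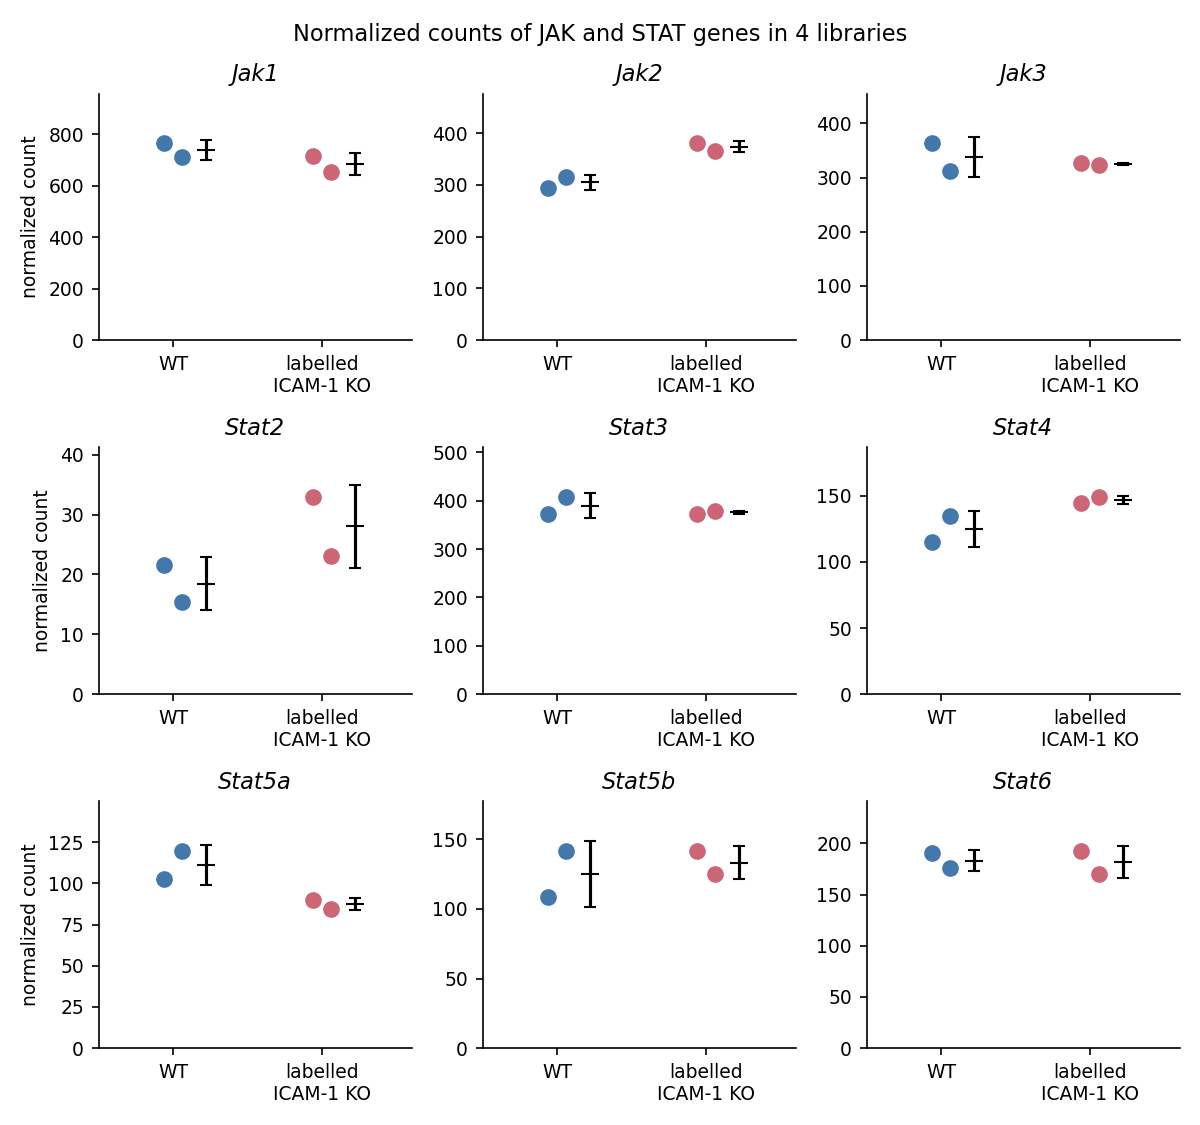
Normalized count (vertical axes, each from 0) of each Janus kinase and STAT gene in the 2 WT libraries (blue) and the 2 KO-labelled libraries (red), with the mean and SD of each group in black. The groups do not overlap for Jak2, Stat2, Stat4 and Stat5a, and in the other 5 genes they do, whereas 59.5% of all genes tested do not overlap.

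**Figure D2:**
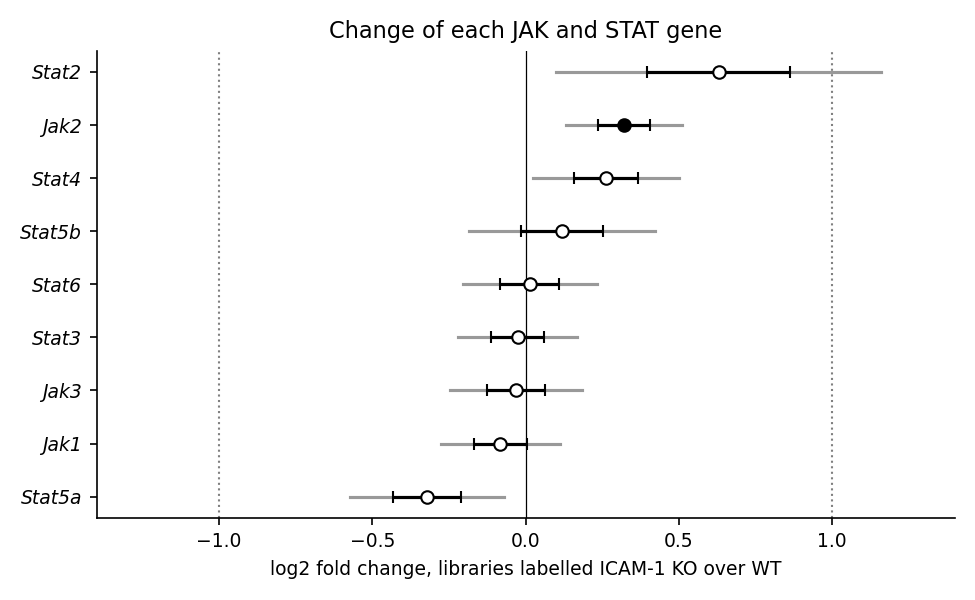
Log2 fold change of each gene, KO-labelled libraries over WT, with its SE (black bar) and 95% confidence interval (grey bar) from the edgeR fit. The filled point, Jak2 at 0.32, has an adjusted p under 0.05, and all 9 points lie between the dotted lines that mark a 2-fold change.

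On a scale that allows levels of different genes to be compared, RPKM, which divides the reads of a gene by the length of its merged exons and by the depth of the library, each of the 3 Janus kinases followed had a higher mean than each of the 6 STAT genes. Jak1 had the highest level in all 4 libraries, at 118 and 108 RPKM in WT and 115 and 104 in the KO-labelled libraries. Its mean level exceeded that of 95.3% of the 11301 genes ranked. Jak2 and Jak3 followed with mean levels of 76.3 and 69.8, and their ranges over the 4 libraries overlapped. Stat6 and Stat3 came next at 46.8 and 45.3, and each was the higher in 2 of the 4 libraries. Stat4, the STAT of IL-12 signalling, had a mean level of 39.6, with a range that overlapped that of Stat3. Stat5b and Stat5a had mean levels of 26.3 and 15.7, and Stat5b was the higher in every library. Stat2, which joins interferon receptors to interferon-stimulated genes, was the least abundant at 4.45 and exceeded 36.2% of the genes ranked. The order depended on the length assigned to a gene. With the longest annotated transcript as the length, Jak3 (92.3) lay above Jak2 (76.3), Stat3 (71.5) above Stat6 (54.5), and Stat3 exceeded Jak2 in both WT libraries (68.4 against 65.1 and 74.1 against 68.7). On this length Stat5a lay above Stat5b in both WT libraries (28.8 against 23.1 and 33.2 against 29.8) and below it in both KO-labelled libraries (26.4 against 31.5 and 24.5 against 27.4).

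**Figure D3:**
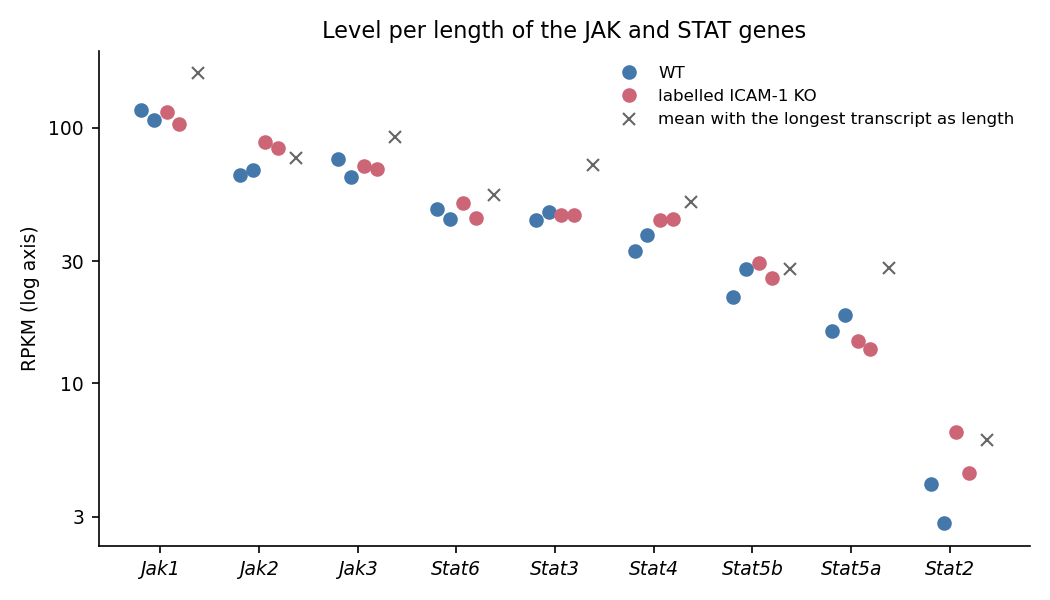
Level of each gene in RPKM over merged exons (vertical log axis) in the 2 WT libraries (blue) and the 2 KO-labelled libraries (red), in order of the mean. Crosses mark the mean with the longest annotated transcript as the length, over all 4 libraries, at 28.2 for Stat5a and 28.0 for Stat5b.

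Among the kinases, Jak2 (chr19:29251828-29313080 in mm10, plus strand) had normalized counts of 295 and 315 in the WT libraries and 381 and 366 in the KO-labelled libraries. Both of the latter lay above both WT libraries, which 59.5% of all genes tested also showed in one direction or the other. The means were 305 ± 14.3 (SD, n = 2) and 374 ± 10.6 (SD, n = 2). The log2 fold change was 0.32 (SE 0.0834, 95% confidence interval 0.13 to 0.51, adjusted p = 0.0365 by the edgeR quasi-likelihood test). The direction was the same under all 13 alternative settings, but the adjusted p was under 0.05 in 7 of them. It was between 0.0757 and 0.16 when any 1 of the 4 libraries was left out, with log2 fold changes of 0.27 to 0.37, and 0.107 without a filter on low counts.

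Jak1 (chr4:101152367-101265282, minus strand), the partner of most of these receptors, had normalized counts of 767 and 710 in WT and 715 and 655 in the KO-labelled libraries. The groups overlapped, and the log2 fold change was -0.08 (SE 0.0858, 95% confidence interval -0.28 to 0.11, adjusted p = 0.565, edgeR). Jak3 (chr8:71676296-71690575, plus strand) had 364 and 312 in WT and 326 and 323 in the KO-labelled libraries. Both values of the latter fell inside the WT range, and the log2 fold change was -0.03 (95% confidence interval -0.25 to 0.19, adjusted p = 0.86, edgeR). Jak3 shares 404 exon bases on the same strand with Insl3, which had only 56.6 to 103 counts per library.

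Shares within a family do not depend on how libraries are scaled to each other. Of the summed level per length of Jak1, Jak2 and Jak3, Jak2 made up 25.2% and 28.6% in the WT libraries and 32.2% and 32.5% in the KO-labelled libraries. Jak1 made up 45.6% and 44.8% in WT and 42.0% and 40.5% in the KO-labelled libraries, and Jak3 made up 29.2% and 26.6% against 25.9% and 27.0%. The groups did not overlap for Jak2 and Jak1 and did so for Jak3. The 3 shares of a library add up to a whole, so a larger share of Jak2 leaves less for Jak1 and Jak3. The normalized counts of Jak1 itself overlapped between the groups. The ratio of Jak2 to Jak1 counts, not divided by length, was 0.384 and 0.443 in WT and 0.533 and 0.559 in the KO-labelled libraries. The normalized counts of the 3 kinases summed to 1426 and 1337 in WT and to 1422 and 1344 in the KO-labelled libraries, and the ranges of the groups overlapped. For all 9 genes the sum was 2275 to 2397, and the highest library exceeded the lowest by 5.37%.

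Markers of other cells, some of them of cells that the sort gate excludes, moved in the same direction as Jak2. Endothelial markers were higher for 8 of 8 genes tested, and their summed normalized counts were 136 to 141 in WT and 348 to 361 in the KO-labelled libraries. Macrophage and monocyte markers were higher for 7 of 8 genes, with sums of 236 in each WT library and 487 to 743. T cell markers were higher for 7 of 11, with sums of 680 to 889 and 1211 to 1442, and B cell markers for 5 of 7, with sums of 155 to 170 and 264 to 328. Of the T cell markers not called, Cd3g had a lower mean in the KO-labelled libraries (94.1 against 120 in WT), and Cd3e overlapped between the groups. Natural killer and ILC1 markers were higher for 2 of 6 genes (46.4 to 58.5 and 81.0 to 82.8), and epithelial markers for 3 of 7 (188 to 417 and 522 to 1323). The most abundant epithelial marker, Scgb1a1, overlapped between the groups, at 790 and 328 RPKM in WT and 300 and 1226 in the KO-labelled libraries. Of 5 fibroblast markers none was called by edgeR, DESeq2 or limma, with sums of 15.3 to 47.7 and 36.2 to 78.1. By edgeR 1 of them had an unadjusted p under 0.05, against 30.2% of all genes tested. Of 7 eosinophil and mast cell markers 1 was higher and 2 were lower, with sums of 456 to 530 and 462 to 619, and Epx, the eosinophil peroxidase gene, was at 0 in both KO-labelled libraries. No other-cell list had a marker at 0 in all libraries. ILC2 markers were higher for 1 and lower for 5 of 12, with sums of 7477 to 7843 and 6020 to 6179. Klrg1 was the higher one, and Arg1, Il5, Id2, Il2ra and Il13 were the lower ones. Of the 6 not called, Il1rl1, Il7r, Rora and Icos had higher means in the KO-labelled libraries, and Gata3 and Thy1 had lower means. The sum therefore does not stand for every ILC2 marker. The part of the other cells in the values of Jak2, Stat2 and Stat4 was not tested.

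Of the STAT genes, Stat5a and Stat5b encode closely related proteins and lie next to each other on chromosome 11, with Stat3 on the other side. Stat5b (chr11:100780731-100850724, minus strand) ends 8626 bases before Stat5a (chr11:100859351-100885169, plus strand), and Stat5a shares its last 72 bases with Stat3 (chr11:100885098-100939540, minus strand). The coding sequences of Stat5a and Stat5b were 90.8% identical over 2291 aligned bases. The first 300 bases of the longest identical stretch, which has 324, are printed because reads that lie within it cannot be assigned to either gene by sequence. The stretch covers coding bases 571 to 894 of both genes, in 3 coding exons each, at chr11:100874023-100874983 (plus strand) for Stat5a and chr11:100797741-100798701 (minus strand) for Stat5b in mm10.
Stat5a and Stat5b shared coding stretch: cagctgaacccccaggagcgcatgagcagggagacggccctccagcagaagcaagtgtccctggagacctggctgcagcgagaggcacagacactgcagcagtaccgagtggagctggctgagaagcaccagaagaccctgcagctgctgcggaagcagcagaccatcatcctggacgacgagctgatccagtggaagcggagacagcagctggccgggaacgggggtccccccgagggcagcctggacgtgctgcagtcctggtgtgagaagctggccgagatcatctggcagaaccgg
Of all windows of 75 bases in the Stat5a transcript, 10.96% were also found in that of Stat5b, and of windows of 50 bases 17.1%. The counting splits such reads between genes by estimation, so the values of the pair are less certain than their SEs alone state.

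Stat5a had normalized counts of 103 and 120 in the WT libraries and 89.9 and 84.7 in the KO-labelled libraries. Both libraries of the latter lay below both WT libraries, with means of 111 ± 12.2 and 87.3 ± 3.70 (SD, n = 2 each). The log2 fold change of -0.32 (SE 0.111, 95% confidence interval -0.57 to -0.07) did not pass the threshold, with an unadjusted p of 0.0173 and an adjusted p of 0.0859 in the edgeR fit. Stat5b had 108 and 142 in WT and 142 and 125 in the KO-labelled libraries, so the groups overlapped, and its log2 fold change was 0.12 (SE 0.134, adjusted p = 0.6, edgeR). The ratio of Stat5a to Stat5b counts, not divided by length, was 0.947 and 0.845 in WT and 0.635 and 0.676 in the KO-labelled libraries, with no overlap. Summed, the pair had a log2 fold change of -0.07 (adjusted p = 0.723, edgeR), and leaving out single libraries moved the sum from -0.22 to 0.09.

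Stat6 (chr10:127642986-127660957, plus strand), the STAT of IL-4 and IL-13, had normalized counts of 191 and 176 in WT and 193 and 171 in the KO-labelled libraries. The groups overlapped almost completely, and the log2 fold change was 0.01 (SE 0.0967, 95% confidence interval -0.21 to 0.23, adjusted p = 0.944, edgeR). Stat3, which carries signals of IL-6, IL-10 and IL-21, had 372 and 408 in WT and 373 and 378 in the KO-labelled libraries. Its log2 fold change was -0.03 (SE 0.0856, 95% confidence interval -0.22 to 0.17, adjusted p = 0.871, edgeR). For both genes the interval excludes a change of 2-fold in either direction.

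Stat4 (chr1:51987148-52107189, plus strand) had normalized counts of 115 and 134 in WT and 145 and 149 in the KO-labelled libraries. The groups did not overlap, and the log2 fold change of 0.26 (SE 0.105, 95% confidence interval 0.02 to 0.50) had an adjusted p of 0.13 in the edgeR fit. The ratio of Stat4 to Stat3 counts, not divided by length, was 0.309 and 0.330 in WT and 0.387 and 0.394 in the KO-labelled libraries. On the same strand, 1033 exon bases of Stat4 are shared with the noncoding gene Gm28177, which had 20.8 to 44.4 counts per library.

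Stat2 (chr10:128270559-128292849, plus strand) had the largest log2 fold change of the 9 and the least precise, at 0.63 (SE 0.234, 95% confidence interval 0.10 to 1.16). Its normalized counts were 21.6 and 15.3 in WT and 33.0 and 23.1 in the KO-labelled libraries. The groups did not overlap, although the lower of the latter exceeded the higher WT library by little, and the adjusted p was 0.107 in the edgeR fit. It passed the threshold in 2 of 13 alternatives. The log2 fold change was 0.86 without KO-labelled replicate 2 (adjusted p = 0.028, edgeR) and 0.90 without WT replicate 1 (adjusted p = 0.0968), but 0.40 without WT replicate 2 (adjusted p = 0.366) and 0.37 without KO-labelled replicate 1 (adjusted p = 0.466). With the replicate number as a block the adjusted p was 0.0489, but the labels give the libraries no more than a shared number.

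The promoter of Stat2 is printed because it held a match to GAAA, any 2 bases and GAAA (both strands searched), a motif like the interferon-stimulated response element that complexes with STAT2 bind. The window runs from 250 bases before to 50 after the RefSeq start, at chr10:128270248-128270547 (plus strand, GRCm38.p6), and the capitals mark the match at bases 29 to 38.
Stat2 promoter: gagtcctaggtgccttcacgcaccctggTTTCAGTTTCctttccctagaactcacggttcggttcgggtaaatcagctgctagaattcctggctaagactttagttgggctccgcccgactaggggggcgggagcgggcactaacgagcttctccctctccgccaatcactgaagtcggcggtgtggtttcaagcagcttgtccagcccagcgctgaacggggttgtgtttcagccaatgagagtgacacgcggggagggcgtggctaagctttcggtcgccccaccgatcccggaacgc
Of the 12 promoter windows of the 9 genes, 2 held this motif, the window above and the second of Stat4 (chr1:52007990-52008289), and 3.44% of all 32851 windows did. None of the 12 held TTCNNNGAA, the motif that most STAT pairs bind, which 8.30% of all windows held on either strand (its reverse complement is itself). Of 11 inhibitor genes with a window, 2 held it, Socs3 with 1 match and Cish with 2. The window of Cish, which encodes a STAT5-induced inhibitor of cytokine receptors, is printed as an example with the motif, at chr9:107296409-107296708 (plus strand, GRCm38.p6), here in capitals at bases 251 to 259 and 262 to 270.
Cish promoter: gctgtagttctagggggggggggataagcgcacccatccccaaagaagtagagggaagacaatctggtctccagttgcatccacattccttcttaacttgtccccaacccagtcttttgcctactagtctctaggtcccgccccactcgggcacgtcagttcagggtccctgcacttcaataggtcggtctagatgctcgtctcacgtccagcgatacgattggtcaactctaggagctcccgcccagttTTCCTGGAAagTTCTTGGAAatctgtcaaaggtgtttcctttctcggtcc
A match describes the letters of the window and was not tested as a site.

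Around the kinases and STATs stand the cytokines, receptors, inhibitors and partners of the pathway. Of 96 such genes listed, 70 were tested, and 17 were higher and 10 lower in the KO-labelled libraries (38.6% against 13.8% of all genes tested, edgeR). With no filter on low counts these counts were 6 and 6, and without WT replicate 1 they were 6 and 8, without WT replicate 2 9 and 7, and without KO-labelled replicate 2 10 and 10. Over all 13 alternatives the counts ranged from 6 to 21 higher and from 6 to 11 lower. The lists were assembled with earlier results of these libraries known, and the counts are a description.

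**Figure D4:**
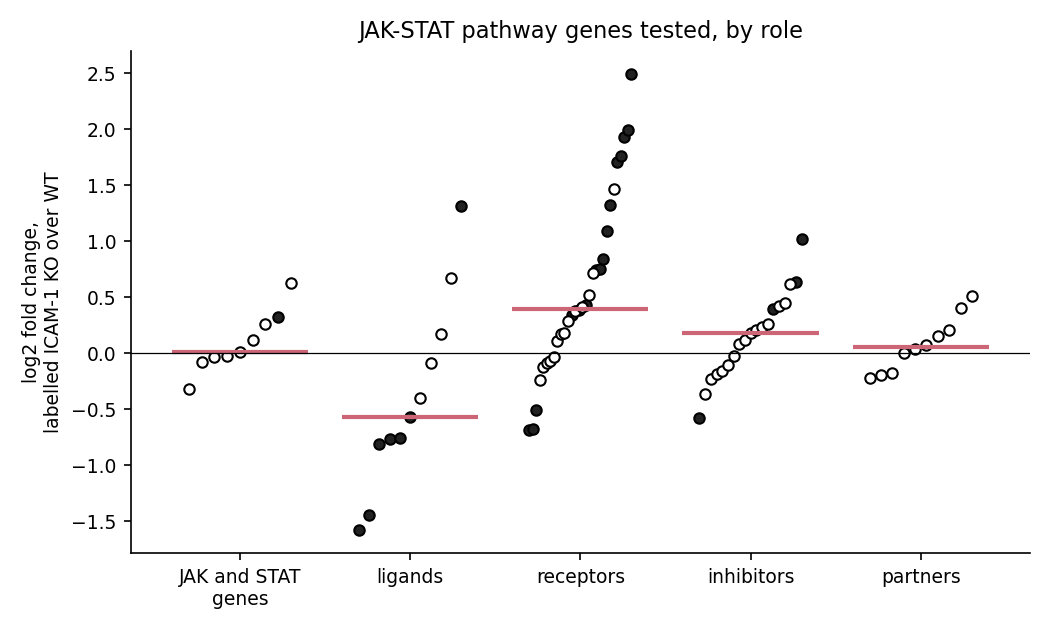
Log2 fold change, KO-labelled libraries over WT, of every tested gene of the JAK-STAT pathway lists, grouped by role, with filled points for an adjusted p under 0.05 and red lines for the median of each group. The median lies at -0.57 for ligands, 0.40 for receptors, 0.18 for inhibitors, 0.05 for partners and 0.01 for the 9 Janus kinase and STAT genes.

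Of 29 cytokine genes that signal through Janus kinases, 11 were tested, and 6 fell and 1 rose, with a median log2 fold change of -0.57. Of all genes tested, 4.97% fell and 8.8% rose by the same test. Il5, the eosinophil growth factor and the most abundant of them, fell by 0.76 on the log2 scale (adjusted p = 0.00274, edgeR) from a mean normalized count of 1145 to 662. Il13 and Il9, further type 2 cytokines, fell by 1.45 and 1.58. Csf2, which encodes GM-CSF, fell by 0.57, Lif by 0.81 and Il6 by 0.76. The exception was Il10, which rose by 1.31 from a mean normalized count of 2.52 to 6.13. T cell and macrophage markers rose in the same libraries, and the part of other cells in the ligand values was not tested. The calls of Il5 and Il13 held in all 13 alternatives. With single libraries left out, the edgeR adjusted p of Il10 was 0.0795 to 0.136, that of Csf2 reached 0.18 and that of Il9 0.0734 without WT replicate 1, and that of Lif reached 0.0616 without WT replicate 2.

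Of 38 receptor chains, 30 were tested, and 13 rose and 3 fell, with a median log2 fold change of 0.40. The shares over all genes tested were 8.8% and 4.97%. Markers of other cells rose in the same libraries, 8 of 8 for endothelium, 7 of 8 for macrophages and monocytes and 7 of 11 for T cells, and their part in the values of the receptors was not tested. Il21r, the specific chain of the IL-21 receptor, which signals through Jak1, Jak3 and STAT3, rose by 1.76 (SE 0.170, adjusted p = 0.000674, edgeR), from 22.6 to 75.03 mean normalized counts. Ifnar1, a chain of the type I interferon receptor upstream of STAT2, rose by 0.74 (SE 0.0964, adjusted p = 0.00247, edgeR). The IL-6 receptor pair rose together, Il6st by 1.32 and Il6ra by 1.99, although Il6ra had only 2.79 mean normalized counts in WT. Il12rb1, the shared chain of the IL-12 and IL-23 receptors, fell by 0.68, and Il10ra by 0.69. Il2ra, the high-affinity chain of the IL-2 receptor, fell by 0.51 (adjusted p = 0.0133, edgeR), from 767 ± 97.2 to 530 ± 8.24 (SD, n = 2 each), and its adjusted p was 0.0786 without WT replicate 2. Il2rg, the common gamma chain that Jak3 binds and the most abundant receptor gene of the list, had mean normalized counts of 1102 ± 42.5 and 1030 ± 77.0 (SD, n = 2 each), and its log2 fold change was -0.07 (adjusted p = 0.646, edgeR).

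Of 19 inhibitors of the pathway, 3 rose and 1 fell (21.1% against 13.8% of all genes tested). The part of other cells in the values of the inhibitors, among them the leukocyte gene Ptprc, was not tested. Cish had 13404 and 14336 counts in WT and 8228 and 9511 in the KO-labelled libraries, and it fell by 0.58 on the log2 scale (SE 0.0838, adjusted p = 0.00381, edgeR), in all 13 alternatives. Ptprc, the CD45 phosphatase of leukocytes that can act on Janus kinases, rose by 0.39 (adjusted p = 0.0138, edgeR), and without WT replicate 1 or 2 its adjusted p was 0.0763 or 0.08. Sh2b3, an adaptor that restrains Jak2 signalling, rose by 0.63, and Socs5 by 1.02, and with single libraries left out their edgeR adjusted p ranged from 0.0419 to 0.095 and from 0.0371 to 0.146. Neither Socs1 (log2 fold change -0.02, adjusted p = 0.947) nor Socs3 (0.21, adjusted p = 0.209) passed the edgeR test. Of 10 partners such as adaptors and coactivators, none was called by edgeR or limma and 1 was called by DESeq2. By edgeR 2 had an unadjusted p under 0.05, against 30.2% of all genes tested. The most abundant of them, the adaptor Grb2 and the coactivator Ncoa1, had log2 fold changes of 0.08 and 0.15.

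Genes often cited as targets of each STAT moved in both directions. The share called was 30% of the STAT5 list, 42.9% of the STAT6 list and 57.1% of the STAT3 list. It was 16.7% of the STAT4 list and 14.3% of the STAT2 list, with 1 called gene each. Of all genes tested 13.8% were called (8.8% higher and 4.97% lower), and the last 2 lists lay near that share. With 6 to 10 genes tested per list, 1 gene moves a share widely. These lists too were assembled with earlier results of these libraries known, so the shares are a description. The part of other cells in the values of the targets was not tested. Of 10 STAT5 targets tested, 1 rose and 2 fell by edgeR. The survival gene Bcl2 rose by 0.66, and Cish and Il2ra fell as given above. Of 7 STAT6 targets, Ccl22 rose by 1.81 and Il4ra by 0.38, while Arg1, the arginase of ILC2s, fell by 0.65, and Gata3, the master regulator of ILC2s, had a log2 fold change of -0.14 (adjusted p = 0.363, edgeR). Of 7 STAT3 targets, Ccr6 rose by 1.80 and Mcl1 by 0.38, and Batf and Bcl3 fell by 0.46 and 0.55, with Junb at -0.20 (adjusted p = 0.314, edgeR). Of 6 STAT4 targets, edgeR called Furin alone, which fell by 0.58. Il18rap had a log2 fold change of -0.37 (adjusted p = 0.0809, edgeR) and passed in 2 of 13 alternatives, DESeq2 (adjusted p = 0.0386) and without KO-labelled replicate 2 (0.0288). Of 7 STAT2 targets, edgeR called Bst2 alone, which fell by 1.09, while Irf7 had 0.24 (adjusted p = 0.347, edgeR). Arg1, Bcl2, Bst2, Ccl22, Cish and Furin kept their calls in all 13 alternatives. With single libraries left out, the edgeR adjusted p reached 0.144 for Il4ra, 0.0936 for Mcl1, 0.0624 for Batf and 0.0923 for Bcl3. Several targets also stand in the lists of receptors, inhibitors or ILC2 markers, so these counts are not independent of those above.

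Other genes followed Jak2, Stat5a and Stat2, the 3 genes with the smallest p, more closely than the rest. Closeness was the Euclidean distance of centred log2 values over the 4 libraries. For Jak2 the nearest genes were the integrin gene Itgav (0.012) and the kinase gene Map4k2 (0.0234). For Stat5a they were Exosc3 (0.0152) and Abtb2 (0.016), and for Stat2 they were Zfp933 (0.0473) and Dok4 (0.0653). Among 11711 genes some gene is always nearest, so the distances are a description over 4 libraries, and no test was made of them.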

How the data were processed

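RNA of sorted lung ILC2s was sequenced in 4 libraries, grouped and numbered by their labels. The authors made cDNA with a SMARTer low-input kit from 10 ng RNA, used STAR for alignment to mm10 (GENCODE M20 annotation) and deposited estimated counts per gene from the E/M method of Partek. The authors also deposited a normalized signal after upper quartile scaling, in which each value equals the count plus 1 times a factor per library. These are the normalized counts in the text. Whether the counting used strand is not given in the sources used here, so overlapping genes can share reads.

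The estimated counts, 24796148 to 28782471 per library, were made integers by rounding and entered edgeR 4.0.16 (quasi-likelihood, upper quartile factors, no covariate) in R 4.3.3 for 11711 genes, those whose normalized counts averaged 1 or more and summed to 10 or more. The Benjamini-Hochberg adjustment ran over all 11711, and the call was an adjusted p under 0.05. The fit was tested on simulated data. Levels per length used exons of GENCODE M21 and total counts. Gene ends are given 1 base before the deposited stop, which matches the annotation. Promoter windows of GRCm38.p6 are from RefSeq, and no table of protein sequences was used here.

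Alternatives were TMM factors, total counts, DESeq2 1.42.0, limma 3.58.1 on log2 values with a pseudocount of 1, the older quasi-likelihood form, no filter, at least 10 counts in every library, filterByExpr, a replicate block, each library left out, and the longest transcript as length.

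The genes and the lists (ligands, receptors, inhibitors, partners, targets of STAT2, STAT3, STAT4, STAT5 and STAT6, and cell markers) were chosen with earlier results of these data known. Genes were named by a rule: the 9 genes, from each list up to 4 called genes per direction by smallest adjusted p and the 2 most abundant, and the 2 genes nearest to each of 3 members. Il6, Socs1, Socs3, Epx, Il1rl1, Klrg1, Il7r, Rora, Icos, Thy1, Cd3g and Cd3e were named after their values were seen. Further family genes are not reported here.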

Additional observations from a re-analysis of the deposited data

How the results depend on the processing

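Under 13 alternatives of the fit, none of the 9 genes changed by 2-fold with an adjusted p under 0.05. Jak2 kept its direction in all 13 and lost its call without a filter (0.28, adjusted p = 0.107) and with filterByExpr (0.29, adjusted p = 0.0627, edgeR), so that no member was higher there (0 and 0), and with each library left out. Stat6 was -0.014 with limma, -0.032 without a filter and -0.017 with filterByExpr, and with total counts as scaling Stat3 was 0.011 and Jak3 0.0053. Without a filter 6 pathway genes were higher and 6 lower and 2 target genes higher, and with filterByExpr 11 pathway genes were higher. More genes were tested in both settings (22158 and 16404).

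With 1 library left out, where the lone library of a group is assumed to vary like the others, the log2 fold changes ranged from 0.27 to 0.37 for Jak2, -0.14 to -0.03 for Jak1, -0.14 to 0.085 for Jak3, 0.37 to 0.90 for Stat2, -0.091 to 0.042 for Stat3, 0.15 to 0.38 for Stat4, -0.43 to -0.21 for Stat5a, -0.062 to 0.33 for Stat5b, -0.066 to 0.089 for Stat6, -0.22 to 0.093 for the summed Stat5 pair, -0.15 to 0.40 for Ncoa1, -0.16 to 0.013 for Il2rg and -0.012 to 0.16 for Grb2. The counts ranged from 0 to 1 for members higher, 6 to 14 for pathway genes higher, 7 to 10 for pathway genes lower, 3 to 5 for target genes higher and 4 to 8 for target genes lower. The 1 member higher without KO-labelled replicate 2 was Stat2.

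The deviations of same-numbered libraries from their group means had a correlation of -0.058 over all genes tested. With 2 libraries per group this cannot show whether they share more than a number. For Stat2, replicate 1 was the higher in both groups (21.6 against 15.3 in WT and 33.0 against 23.1 in the KO-labelled libraries). With the replicate block, 2 members were higher, since Stat2 (0.63, adjusted p = 0.0489, edgeR) was called beside Jak2. Of all genes, 1077 were then higher and 638 lower, against 1030 and 582.

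With the longest transcript as length, mean shares within the family were 29.8% for Stat3 (25.5% with merged exons), 11.8% for Stat5a (8.82%), 11.6% for Stat5b (14.7%), 22.8% for Stat6 (26.3%), 49.3% for Jak1 (43.2%) and 22.9% for Jak2 (29.6%). The cause of the other changes was not tested. Each of the 9 genes had 483 or more counts per library, and each group held 2 libraries.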
